A study of Homo sapiens with 6 samples.

Results

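Integrins and the proteins that assemble on their cytoplasmic tails were examined in PANC-1 cells that lack part of the super-enhancer DKK1-SE. The 42 genes were chosen by name, as integrin chains, without most alpha chains of leukocytes and platelets, together with the main proteins of focal adhesions. They are 12 integrin alpha chains, 8 integrin beta chains and 22 cytoplasmic adhesion proteins, out of 62703 genes listed in the deposited table, and every one of them was found there under its symbol. Enough counts for a test were present for 37 of the 42, while *ITGA4*, *ITGA8*, *ITGA9*, *ITGB6* and *ITGB7* had too few. PANC-1 is a human cell line derived from a pancreatic ductal carcinoma. With CRISPR/Cas9 the study removed e1, a component enhancer of DKK1-SE, and the comparison asks which transcripts differ once it is gone. DKK1-SE-/- cells (genotype DKK1-SE-KO in the labels) carry the deletion on both alleles and come from a single subclone, whereas DKK1-SE+/+ cells are the PANC-1 control line (genotype WT). Polyadenylated RNA of 3 biological replicates of each genotype was sequenced from stranded libraries. Because the replicates of DKK1-SE-/- cells are samples of 1 clone, the deletion and other features of that clone cannot be told apart, and p-values measure the spread between these samples only.

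Each integrin is a pair of an alpha and a beta chain that spans the plasma membrane and binds collagens, laminins, fibronectin or other matrix proteins outside the cell. Inside the cell the beta tail is gripped by talin and kindlin, which switch the receptor on, while vinculin, alpha-actinin and filamin tie the complex to actin and the kinases FAK and Src signal from it through paxillin and p130Cas. Pancreatic ductal tumours are known for a dense matrix rich in collagen and laminin, to which carcinoma cells attach largely through integrins of the beta 1 and alpha v families.

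The deposited expected counts summed to 21822314, 16475810 and 18803154 in DKK1-SE+/+ replicates 1, 2 and 3 and to 17359835, 20098086 and 17804764 in DKK1-SE-/- replicates 1, 2 and 3, the order used for all values that follow. *DKK1*, after which the super-enhancer is named, had TPM values (a level per unit of transcript length, scaled to a fixed total in each library) of 229, 246 and 199 in DKK1-SE+/+ samples and 66.8, 79.8 and 82.7 in DKK1-SE-/- samples. Every DKK1-SE-/- sample was lower than every DKK1-SE+/+ sample, so the labels and the target gene went together in all 6 libraries. The log2 fold change of *DKK1*, DKK1-SE-/- over DKK1-SE+/+, was -1.45 (standard error 0.112, adjusted p = 6.16e-06 in edgeR's quasi-likelihood test with Benjamini-Hochberg adjustment), and an exact two-sided permutation test of its TPM gave p = 0.1, the smallest value that 3 samples against 3 allow.

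The DKK1-SE-/- libraries differed more among themselves (chi-square per gene 22.3 to 31 between pairs) than the DKK1-SE+/+ libraries did (4.12 to 11.9). Across genes, which are not independent replicates, the deviation of a library from its own group's mean correlated with the GC content of the gene's transcripts by a Spearman's rho of 0.67 in DKK1-SE-/- replicate 1, 0.05 in replicate 2 and -0.67 in replicate 3, against -0.20, -0.21 and 0.38 in the DKK1-SE+/+ replicates. Such deviations are centred on the group, and against the DKK1-SE+/+ mean the values were 0.56, 0.43 and 0.15 in DKK1-SE-/- replicates 1, 2 and 3, highest in replicate 1 and lowest in replicate 3. Ductal and epithelial markers were abundant, with a summed TPM of 1846, 1887 and 1923 in DKK1-SE+/+ samples and 3146, 3089 and 2659 in DKK1-SE-/- samples over 5 genes, of which *KRT8* was the most abundant. *KRT8*, *KRT18* and *KRT19* carry the higher sum of the DKK1-SE-/- samples, while *KRT7* did not pass the test and *EPCAM* was lower without overlap, at 4.81, 3.91 and 3.8 in DKK1-SE+/+ samples and 1.7, 3.27 and 2.78 in DKK1-SE-/- samples. In contrast, the summed TPM stayed at or below 1.29 in every sample for the 3 acinar, 3 islet, 2 platelet, 3 endothelial and 3 fibroblast markers, among which *CELA3A*, *INS* and *SST* had a TPM of 0 in all samples. Of the 3 leukocyte markers, *PTPRC* and *CD3E* were near 0 and *CD68*, a lysosomal glycoprotein that carcinoma cells also express, had TPM values of 43.2, 40.9 and 46.5 in DKK1-SE+/+ samples and 67.8, 64.8 and 67.1 in DKK1-SE-/- samples. In bulk RNA, fewer cells with a transcript and less of it per cell cannot be told apart.

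Of the 37 tested genes of integrins and adhesion proteins, 23 differed between the genotypes at an adjusted p under 0.05 in edgeR's test (62.2%), compared with 39.3% of all 15179 tested genes. Among them 12 rose in DKK1-SE-/- cells, where 19.8% of all tested genes did, and 11 fell, where 19.5% of all did, so changes went in both directions. The median log2 fold change of the tested members was 0.13 beside 0.03 for all tested genes, and the median absolute log2 fold change was 0.55 beside 0.38. With an offset for the GC content of each gene in each library, the members' median turned to -0.01, beside 0.01 for all tested genes. The genotypes' CPM (counts scaled to the normalized library size) did not overlap for 25 of the 37, while this held for 51.9% of all tested genes. At an unadjusted p under 0.05 and a log2 fold change of 1.2 or more in either direction, *ITGA11*, *FHL1*, *ITGB8* and *TNS4* were called, which is 4 of 37 where 8.66% of all tested genes were. The study's text words its limit of 1.2 as a fold change, and on that linear scale 24 of 37 members were past it, where 47.6% of all tested genes were. Integrin chains passed the adjusted test in 11 of 15 cases, with 5 higher and 6 lower, and cytoplasmic proteins in 12 of 22, with 7 higher and 5 lower. Without DKK1-SE-/- replicate 1 the number of members passing was 21, and without replicate 3 it was 26, while the number over all tested genes went the same way, from 5972 to 5278 and 7558. Without DKK1-SE+/+ replicate 2 it was 17, with 11 higher and 6 lower, beside 4095 of all tested genes. Without DKK1-SE+/+ replicate 3 it was 18, with 11 higher and 7 lower, beside 4700. With the GC-content offset 27 members passed, 13 higher and 14 lower, beside 6170 of all tested genes, 3003 higher and 3167 lower, and 22 of the 27 were among the 23 that passed without it.

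**Figure D1:**
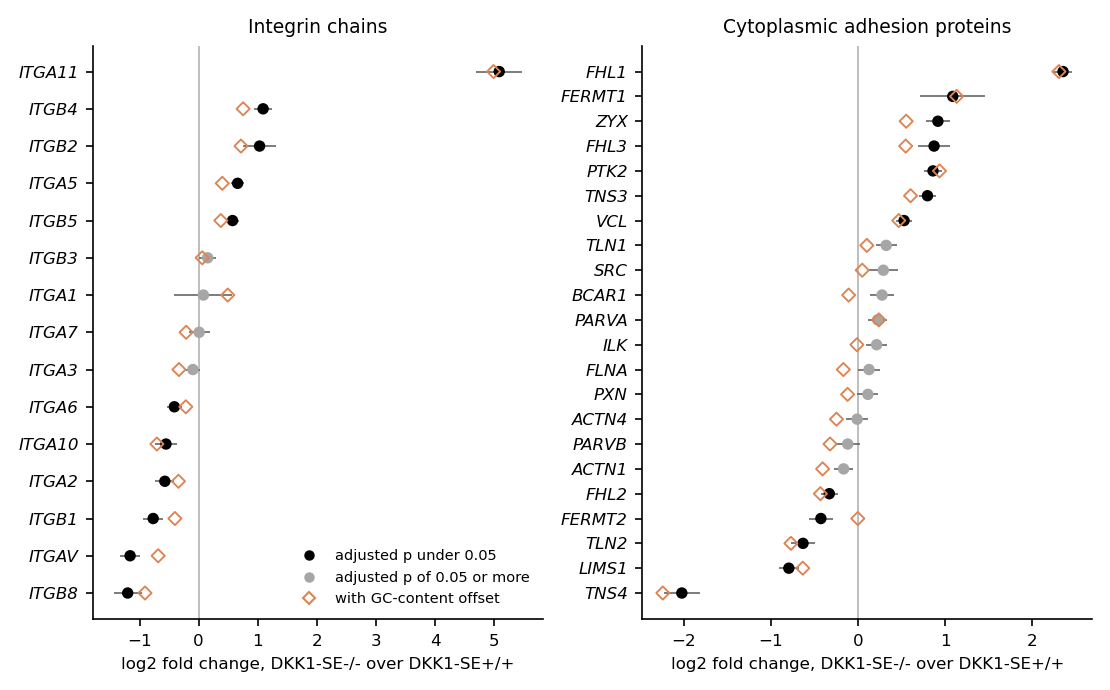
Log2 fold changes of the 37 tested members, DKK1-SE-/- over DKK1-SE+/+ (3 samples each), with bars of 1 standard error. Filled circles are edgeR values, black where the adjusted p is under 0.05 and grey elsewhere, and open diamonds are values with the GC-content offset; ITGA11 at 5.08 and FHL1 at 2.35 lie highest, TNS4 at -2.02 lowest, and the value of FERMT2 moves from -0.42 to -0.00 with the offset.

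Among the alpha chains, a laminin receptor chain was by far the most abundant. *ITGA3*, which pairs with the beta 1 chain to bind laminins of basement membranes, had the highest TPM of the alpha chains, 499, 507 and 558 in DKK1-SE+/+ samples and 488, 438 and 448 in DKK1-SE-/- samples. These TPM values did not overlap between the genotypes, yet the CPM did, and *ITGA3* did not pass the test with a log2 fold change of -0.10 (standard error 0.117, adjusted p = 0.537 in edgeR). With the GC-content offset it did, at a log2 fold change of -0.33 (adjusted p = 0.00444 in edgeR; 0.00444 to 0.88 over all alternatives). *ITGA6*, the laminin receptor chain that joins the beta 1 or the beta 4 chain, had TPM values of 71.1, 82.8 and 74.4 in DKK1-SE+/+ samples and 41.5, 48.1 and 66.8 in DKK1-SE-/- samples. All 3 DKK1-SE-/- samples were below the DKK1-SE+/+ samples, replicate 1 the farthest and replicate 3 the nearest. *ITGA6* fell with a log2 fold change of -0.41 (standard error 0.127, adjusted p = 0.0247 in edgeR), and the log2 fold change was -0.22 with the GC-content offset. This call was lost without DKK1-SE+/+ replicate 2 (adjusted p = 0.111 in edgeR), DKK1-SE+/+ replicate 3 (0.056), DKK1-SE-/- replicate 1 (0.0544) or DKK1-SE-/- replicate 2 (0.0747), within a range of 9.65e-04 to 0.133 over all alternatives. *ITGA7*, a laminin receptor chain best known from muscle, was low at a TPM of 4.12, 3.4 and 3.89 in DKK1-SE+/+ samples and 3.1, 3.48 and 5.25 in DKK1-SE-/- samples, groups that overlapped, and its log2 fold change of 0.01 was not past the threshold (adjusted p = 0.976 in edgeR).

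The collagen-binding chains went both ways. *ITGA2*, the alpha 2 chain of the epithelial collagen receptor, had TPM values of 80.3, 76.3 and 70.9 in DKK1-SE+/+ samples and 32.3, 44.7 and 62.6 in DKK1-SE-/- samples. The groups were apart, and DKK1-SE-/- replicate 1 was again the lowest of the 3 and replicate 3 the highest. *ITGA2* fell with a log2 fold change of -0.57 (standard error 0.162, adjusted p = 0.0165 in edgeR); the log2 fold change was -0.34 with the GC-content offset, and the call was lost without DKK1-SE+/+ replicate 2 (adjusted p = 0.0523 in edgeR, in a range of 1.59e-05 to 0.0555 over all alternatives). *ITGA10*, a collagen receptor chain of cartilage, was present at a low TPM of 2.02, 2.16 and 1.56 in DKK1-SE+/+ samples and 0.82, 1.06 and 1.45 in DKK1-SE-/- samples, without overlap. It fell with a log2 fold change of -0.55 (standard error 0.184, adjusted p = 0.0342 in edgeR), but leaving out any 1 sample except DKK1-SE-/- replicate 3 ended the call, with adjusted p between 0.0563 without DKK1-SE-/- replicate 2 and 0.0946 without DKK1-SE+/+ replicate 2 (edgeR; 0.0745 without DKK1-SE+/+ replicate 1, 0.0865 without DKK1-SE+/+ replicate 3 and 0.069 without DKK1-SE-/- replicate 1, in a range of 0.00658 to 0.11 over all alternatives). *ITGA11*, the fibrillar collagen receptor chain that is typical of fibroblasts, had expected counts of 3, 1 and 3 in DKK1-SE+/+ samples and 79, 89 and 61 in DKK1-SE-/- samples. It was close to undetected in control cells and present in all 3 DKK1-SE-/- samples. The ratio of its summed counts, scaled to library size, was 33.8 (95% exact interval 16.1 to 85, counting error only), and the fitted log2 fold change was 5.08 (adjusted p = 6.16e-06 in edgeR), a value that rests on the few control counts. In TPM the DKK1-SE-/- samples read 2.66, 0.52 and 0.64, so replicate 1 was several times the others although its count was not. Fitted on TPM in limma, the *ITGA11* log2 fold change was 1.04 on log2(TPM + 1) and 3.21 on log2(TPM + 0.1), and it passed in both. *ITGA1*, the collagen receptor chain whose exons overlap *PELO* on the same strand, had TPM values of 0.2, 0.79 and 0.29 in DKK1-SE+/+ samples and 0.06, 0.96 and 0.64 in DKK1-SE-/- samples and counts of at most 43; the groups overlapped and the adjusted p was 0.911 in edgeR.

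Chains that recognise fibronectin, vitronectin and related ligands differed in direction. *ITGA5*, which forms the classical fibronectin receptor with the beta 1 chain, had TPM values of 122, 122 and 135 in DKK1-SE+/+ samples and 205, 179 and 178 in DKK1-SE-/- samples. Every DKK1-SE-/- sample was higher than every control. *ITGA5* rose with a log2 fold change of 0.66 (standard error 0.116, adjusted p = 0.00129 in edgeR), and with the GC-content offset the log2 fold change was 0.40. *ITGAV*, the alpha v chain shared by the vitronectin receptors and by integrins that free TGF-beta from its latent form, had TPM values of 71, 61.7 and 54.2 in DKK1-SE+/+ samples and 18.4, 28 and 35 in DKK1-SE-/- samples. The groups were well apart, DKK1-SE-/- replicate 1 being the lowest sample. *ITGAV* fell with a log2 fold change of -1.16 (standard error 0.173, adjusted p = 5.05e-04 in edgeR), 55.2% lower, and its log2 fold change was -0.68 with the GC-content offset. The remaining alpha chains were not tested: *ITGA4*, a receptor chain for fibronectin and a vascular adhesion molecule, had counts of 0, 0 and 0 in DKK1-SE+/+ samples and 7, 2 and 2 in DKK1-SE-/- samples, and it overlaps *CERKL* on the opposite strand. *ITGA8*, a chain of mesenchymal cells, had counts of 0, 0 and 0 in DKK1-SE+/+ samples and 2, 3 and 2 in DKK1-SE-/- samples, and *ITGA9*, a tenascin receptor chain, of 1, 0 and 1 in DKK1-SE+/+ samples and 4, 0 and 2 in DKK1-SE-/- samples.

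AP-1, TEAD and SRF are transcription factors that act on many adhesion and cytoskeletal genes, and the promoters of the members were searched for their motifs. Promoter windows of 300 bases, from 250 before to 50 after a gene's start (RefSeq, GRCh38.p14, the first window listed for each gene), were matched for 31 of the 42 members. TGANTCA, the AP-1 motif, was found on either strand in 3 of them (9.68%), beside 7.76% of all 27305 windows of the same length. GGAATG, the TEAD motif, was found in 4 (12.9%, beside 14% of all), and the CArG box of SRF, CC and GG around 6 letters A or T, in 3 (9.68%, beside 1.29%). Both *ITGA5*, which rose, and *ITGB1*, which fell, carry the TEAD letters, and AP-1 letters lie next to the start of *ITGA5* and in the windows of *BCAR1* and *ACTN4*, which did not pass the test. *VCL* and *ITGA10* hold TEAD letters as well, and *FHL2*, *FLNA* and *ITGB6* hold the CArG box. Matches in *ITGA5*, *ITGB1* and *FHL2* are shown 5′ to 3′ on the gene's strand with the motif in capitals. These 3 genes passed the test and each motif occurs in at least 1 of them. The TEAD matches of *VCL* and *ITGA10*, which also passed, are not shown, and binding was not measured. The windows are chr12:54419217-54419516 (minus strand) for *ITGA5*, chr10:32958181-32958480 (minus strand) for *ITGB1* and chr2:105438464-105438763 (minus strand) for *FHL2*.
ITGA5, AP-1: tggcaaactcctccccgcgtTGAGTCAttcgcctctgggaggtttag
ITGA5, TEAD: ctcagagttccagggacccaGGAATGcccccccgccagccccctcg
ITGB1, TEAD: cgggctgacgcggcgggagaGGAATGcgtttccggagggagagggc
FHL2, CArG box: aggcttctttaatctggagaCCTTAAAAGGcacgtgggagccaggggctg

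Of the beta chains, the common beta 1 chain fell and the beta 4 and beta 5 chains rose. *ITGB1*, the partner of most alpha chains listed here, had TPM values of 484, 481 and 443 in DKK1-SE+/+ samples and 170.0, 247 and 338 in DKK1-SE-/- samples. All DKK1-SE-/- samples were below the controls, but they were spread widely, with replicate 1 lowest and replicate 3 highest. *ITGB1* fell with a log2 fold change of -0.77 (standard error 0.166, adjusted p = 0.00423 in edgeR), and its log2 fold change was -0.40 with the GC-content offset. *ITGB5*, a partner of alpha v in a vitronectin receptor, had TPM values of 165, 171 and 178 in DKK1-SE+/+ samples and 242, 223 and 223 in DKK1-SE-/- samples, with no overlap and little spread. It rose with a log2 fold change of 0.57 (standard error 0.102, adjusted p = 0.00142 in edgeR), and the log2 fold change was 0.37 with the GC-content offset. *ITGB4*, the beta chain of hemidesmosomes, which pairs with alpha 6, had TPM values of 9.2, 15.4 and 14.3 in DKK1-SE+/+ samples and 32.2, 22.2 and 26.1 in DKK1-SE-/- samples. Every DKK1-SE-/- sample was above every control, replicate 1 being the highest. *ITGB4* rose with a log2 fold change of 1.09 (standard error 0.149, adjusted p = 2.81e-04 in edgeR), 2.13-fold, and the log2 fold change was 0.75 with the GC-content offset.

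*ITGB8*, which joins alpha v to bind latent TGF-beta, was expressed at a low TPM of 1.6, 1.42 and 1.23 in DKK1-SE+/+ samples and 0.41, 0.91 and 0.84 in DKK1-SE-/- samples. The groups did not overlap. *ITGB8* fell with a log2 fold change of -1.20 (standard error 0.235, adjusted p = 0.00243 in edgeR), and of the 2 fits on TPM the call was kept on log2(TPM + 1), at -0.50, and lost on log2(TPM + 0.1), at -0.94 (adjusted p = 0.067 in limma, in a range of 1.67e-07 to 0.067 over all alternatives). *ITGB2*, the beta chain of leukocyte integrins, had TPM values of 1.23, 1.95 and 0.94 in DKK1-SE+/+ samples and 2.21, 1.2 and 1.08 in DKK1-SE-/- samples, which overlapped between the genotypes, while its counts of 29, 23 and 21 in DKK1-SE+/+ samples and 48, 46 and 43 in DKK1-SE-/- samples did not. In counts it rose with a log2 fold change of 1.03 (standard error 0.274, adjusted p = 0.0124 in edgeR), and in TPM the call was lost, with a log2 fold change of 0.07 (adjusted p = 0.844 in limma on log2(TPM + 1), in a range of 0.0133 to 0.853 over all alternatives). The 2 deposited units thus part for this gene. *ITGB3*, the other vitronectin receptor chain of alpha v, had TPM values of 3.48, 3.5 and 3.87 in DKK1-SE+/+ samples and 3.17, 3.27 and 4.39 in DKK1-SE-/- samples, which overlapped, and an adjusted p of 0.413 in edgeR. *ITGB6*, an epithelial partner of alpha v, had counts of 0, 1 and 0 in DKK1-SE+/+ samples and 0, 0 and 6 in DKK1-SE-/- samples, and *ITGB7*, a lymphocyte chain whose exons overlap *ZNF740* on the opposite strand, of 1, 0 and 1 in DKK1-SE+/+ samples and 2, 0 and 2 in DKK1-SE-/- samples, too few for a test. Of the leukocyte and platelet alpha chains, 6 in number, *ITGAE*, *ITGAM* and *ITGA2B* were tested and 0 passed in edgeR, with unadjusted p values of 0.539, 0.197 and 0.349.

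**Figure D2:**
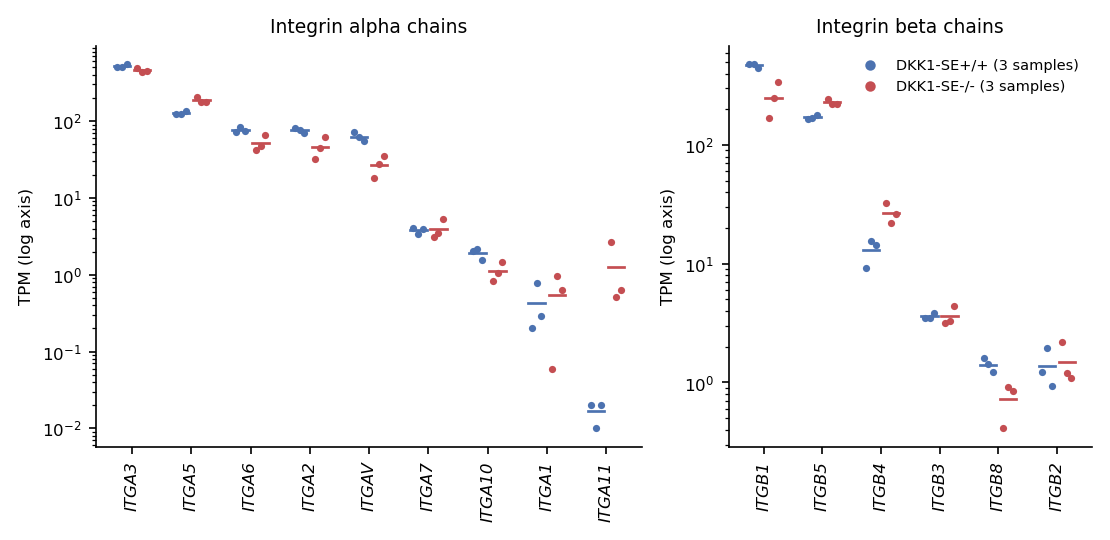
TPM of the tested integrin alpha chains (left) and beta chains (right) on log axes, ordered by their control level. Each point is 1 sample, blue for DKK1-SE+/+ and red for DKK1-SE-/- (3 each, replicates 1 to 3 from left to right), and lines are group means; ITGB1 spans 170.0 to 338 in DKK1-SE-/- samples, below the control range of 443 to 484.

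Because TPM is a level per length, the chains can be set against each other within a sample, here as a description without a test. The alpha chains summed to a TPM of 849.9, 856 and 898 in DKK1-SE+/+ samples and 792, 744 and 798 in DKK1-SE-/- samples. The beta chains summed to 665, 674 and 642 and 450.4, 497 and 594, a ratio of the means of 0.778, beside 0.896 for the alpha chains. Both sums were lower in every DKK1-SE-/- sample than in every control. *ITGB1* made up 72.8%, 71.4% and 69% of the summed beta chain TPM in DKK1-SE+/+ samples and 37.8%, 49.6% and 56.8% in DKK1-SE-/- samples. *ITGB5* made up 24.8%, 25.3% and 27.8% and 53.8%, 44.8% and 37.6%, so that in DKK1-SE-/- replicate 1 it exceeded *ITGB1*, which it did in no other sample. On the alpha side *ITGA3* kept a similar share, 58.7%, 59.2% and 62.1% in DKK1-SE+/+ samples and 61.6%, 58.9% and 56% in DKK1-SE-/- samples. *ITGA5* went from 14.4%, 14.3% and 15% to 25.9%, 24.1% and 22.3%, and *ITGAV* from 8.36%, 7.2% and 6.04% to 2.33%, 3.77% and 4.38%, neither with an overlap.

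**Figure D3:**
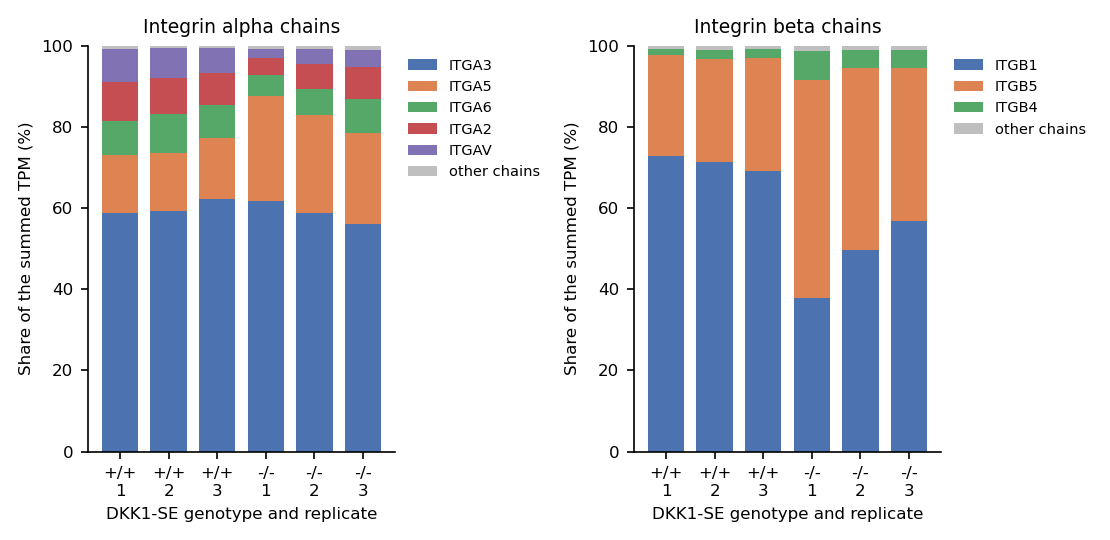
Share of each chain in the summed TPM of the integrin alpha chains (left) and beta chains (right), 1 bar per sample, by DKK1-SE genotype and replicate. The ITGB1 share is 69% to 72.8% in DKK1-SE+/+ samples and 37.8% to 56.8% in DKK1-SE-/- samples.

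Of the talins and kindlins among the members, both kindlins and the less abundant talin passed the test, and the main talin did not. *TLN1*, the talin that links beta tails to actin in most cells, had TPM values of 131, 137 and 159 in DKK1-SE+/+ samples and 188, 147 and 168 in DKK1-SE-/- samples, with an overlap. Its CPM did not overlap. *TLN1* just missed the threshold, with a log2 fold change of 0.33 (standard error 0.121, adjusted p = 0.0536 in edgeR). It passed without DKK1-SE-/- replicate 2 (adjusted p = 0.0451 in edgeR), without replicate 3 (0.0379) and with no filter beyond 1 count (0.0414), in a range of 0.0379 to 0.513 over all alternatives. With the GC-content offset its log2 fold change was 0.10 (adjusted p = 0.401 in edgeR). *TLN2*, the second talin, had TPM values of 5.11, 3.91 and 4.57 in DKK1-SE+/+ samples and 3.03, 2.97 and 3.09 in DKK1-SE-/- samples. Each DKK1-SE-/- sample was lower than each control, and the 3 were nearly equal. *TLN2* fell with a log2 fold change of -0.63 (standard error 0.14, adjusted p = 0.005 in edgeR), a call that limma on log2(TPM + 1) did not make (adjusted p = 0.0697, in a range of 2.96e-04 to 0.0762 over all alternatives). *FERMT2*, the kindlin of most adherent cells, had TPM values of 28.5, 28.8 and 28.9 in DKK1-SE+/+ samples and 16.1, 18.6 and 24.7 in DKK1-SE-/- samples, which did not overlap. It fell with a log2 fold change of -0.42 (standard error 0.134, adjusted p = 0.0272 in edgeR), but its log2 fold change was -0.00 with the GC-content offset (adjusted p = 0.994 in edgeR) and the call was also lost without DKK1-SE+/+ replicate 2 (0.0831), DKK1-SE+/+ replicate 3 (0.0779) or DKK1-SE-/- replicate 2 (0.0676), in a range of 0.00153 to 0.995. *FERMT1*, the kindlin of epithelia, was scarce, with TPM values of 0.4, 0.13 and 0.32 in DKK1-SE+/+ samples and 0.56, 0.98 and 0.45 in DKK1-SE-/- samples and at most 36 counts. Its CPM did not overlap and it rose with a log2 fold change of 1.09 (standard error 0.375, adjusted p = 0.039 in edgeR), although leaving out any 1 sample except DKK1-SE-/- replicate 3 ended this call (edgeR, adjusted p = 0.0774, 0.153 and 0.0689 without DKK1-SE+/+ replicates 1, 2 and 3, and 0.0698 and 0.147 without DKK1-SE-/- replicates 1 and 2, in a range of 0.0304 to 0.153). In limma on log2(TPM + 1) the value of *FERMT1* was 0.37, without a call.

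Integrin-linked kinase, PINCH and parvin form a complex that couples the beta tail to actin. Of its parts among the members, PINCH alone passed the test. *LIMS1*, which encodes PINCH-1, had TPM values of 42, 44.2 and 39.3 in DKK1-SE+/+ samples and 19.9, 22.7 and 27.1 in DKK1-SE-/- samples. The DKK1-SE-/- samples were all far below the controls. *LIMS1* fell with a log2 fold change of -0.79 (standard error 0.115, adjusted p = 4.17e-04 in edgeR). *ILK*, the pseudokinase at the centre of the complex, had TPM values of 216, 188 and 199 in DKK1-SE+/+ samples and 212, 217 and 195 in DKK1-SE-/- samples, which overlapped, and it did not pass (adjusted p = 0.176 in edgeR; 0.0237 without DKK1-SE-/- replicate 3, in a range of 0.0237 to 0.947 over all alternatives). The exons of *ILK* overlap those of *TAF10* on the opposite strand, and the sources used here do not say whether the counting used strand. *PARVA*, the widespread parvin, had TPM values of 6.49, 7.21 and 7.82 in DKK1-SE+/+ samples and 7.29, 7.36 and 8.95 in DKK1-SE-/- samples and an adjusted p of 0.118 in edgeR. *PARVB*, a second parvin, had TPM values of 26.2, 28.3 and 26.6 in DKK1-SE+/+ samples and 27.3, 21.2 and 18.9 in DKK1-SE-/- samples and an adjusted p of 0.549 in edgeR. Both parvins overlapped between the genotypes in TPM, and both passed with the GC-content offset, *PARVA* at a log2 fold change of 0.24 and *PARVB* at -0.32.

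Of the signalling proteins among the members, FAK alone passed the test. *PTK2*, the gene of focal adhesion kinase (FAK), had TPM values of 33, 32.2 and 35.1 in DKK1-SE+/+ samples and 46.7, 53.1 and 63.6 in DKK1-SE-/- samples. Every DKK1-SE-/- sample was higher than every control, replicate 3 the highest. *PTK2* rose with a log2 fold change of 0.86 (standard error 0.106, adjusted p = 1.48e-04 in edgeR). *SRC*, the kinase that works with FAK, had TPM values of 5.61, 5.17 and 6.84 in DKK1-SE+/+ samples and 7.06, 6.7 and 5.35 in DKK1-SE-/- samples, and the groups overlapped (adjusted p = 0.185 in edgeR). *PXN* encodes paxillin, the adaptor that FAK and Src phosphorylate, and its TPM was 265, 287 and 301 in DKK1-SE+/+ samples and 302, 251 and 282 in DKK1-SE-/- samples. The paxillin values overlapped and the gene did not pass, with a log2 fold change of 0.12 (standard error 0.12, adjusted p = 0.473 in edgeR); its exons overlap PXN-AS1 on the opposite strand. *BCAR1*, the gene of the adaptor p130Cas, had TPM values of 57.4, 67.2 and 77.1 in DKK1-SE+/+ samples and 80.8, 71.2 and 62.4 in DKK1-SE-/- samples, which also overlapped (adjusted p = 0.142 in edgeR; 0.0189 without DKK1-SE-/- replicate 3, in a range of 0.0189 to 0.661 over all alternatives).

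The proteins that anchor adhesions to actin filaments included the 2 most abundant members, and of the 4 only vinculin passed. *ACTN4*, an alpha-actinin that crosslinks actin, had the highest TPM of all members, 1255, 1444 and 1578 in DKK1-SE+/+ samples and 1460.3, 1095 and 1359.7 in DKK1-SE-/- samples. *FLNA*, the filamin that binds beta tails and crosslinks actin, followed with 709.6, 750.3 and 852 in DKK1-SE+/+ samples and 835, 747 and 784 in DKK1-SE-/- samples. For both genes the groups overlapped, and *ACTN4* shares exonic bases with *CAPN12* on the opposite strand. *ACTN4* had a log2 fold change of -0.01 (standard error 0.122, adjusted p = 0.965 in edgeR), with -0.25 (adjusted p = 0.0272) under the GC-content offset and a range of 0.0272 to 0.993 over all alternatives. *FLNA* had a log2 fold change of 0.13 (standard error 0.127, adjusted p = 0.452 in edgeR), and its log2 fold change turned to -0.17 with the GC-content offset (adjusted p = 0.148 in edgeR, in a range of 0.148 to 0.887). *ACTN1*, the other non-muscle alpha-actinin, had TPM values of 231, 245 and 240.3 in DKK1-SE+/+ samples and 203, 165 and 195 in DKK1-SE-/- samples, which did not overlap, unlike its CPM. *ACTN1* did not pass, with a log2 fold change of -0.16 (standard error 0.106, adjusted p = 0.245 in edgeR), but did so with the GC-content offset at a log2 fold change of -0.40 (adjusted p = 0.0014) and without DKK1-SE-/- replicate 1 at -0.27 (0.0484), and in limma at -0.35 on log2(TPM + 1) (0.0333) and -0.35 on log2(TPM + 0.1) (0.035), in a range of 0.0014 to 0.755 over all alternatives. *VCL*, the gene of vinculin, which reinforces talin's hold on actin under tension, had TPM values of 186, 191 and 185 in DKK1-SE+/+ samples and 230.3, 236 and 285 in DKK1-SE-/- samples. All DKK1-SE-/- samples were above all controls. *VCL* rose with a log2 fold change of 0.53 (standard error 0.0927, adjusted p = 0.00124 in edgeR), and it shares exonic bases with *AP3M1* on the opposite strand.

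Opposite changes were seen within the tensins, which bind beta tails in older adhesions. *TNS3*, a tensin of many adherent cells, had TPM values of 47.2, 48.5 and 53.2 in DKK1-SE+/+ samples and 80, 68 and 84.6 in DKK1-SE-/- samples, with every DKK1-SE-/- sample above the controls. It rose with a log2 fold change of 0.80 (standard error 0.101, adjusted p = 1.66e-04 in edgeR). *TNS4*, a short tensin of epithelia that lacks the actin-binding part, had TPM values of 13.3, 15.6 and 15.1 in DKK1-SE+/+ samples and 4.32, 2.04 and 3.48 in DKK1-SE-/- samples. The DKK1-SE-/- samples lay far below the controls without any overlap. *TNS4* fell with a log2 fold change of -2.02 (standard error 0.204, adjusted p = 4.13e-05 in edgeR), 75.3% lower, the strongest decrease among the tested members, and its log2 fold change was -2.24 with the GC-content offset.

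The LIM-domain proteins of stress fibres and mature adhesions included the clearest increase of a well-expressed member. *FHL1*, a LIM-only protein best known from muscle, had TPM values of 37.1, 37.8 and 41.1 in DKK1-SE+/+ samples and 173, 163 and 188 in DKK1-SE-/- samples. The 3 samples of each genotype were close together and the genotypes far apart. *FHL1* rose with a log2 fold change of 2.35 (standard error 0.0979, adjusted p = 1.35e-07 in edgeR), 5.11-fold. *FHL2*, a related adaptor and coregulator whose promoter window holds the CArG box shown above, had TPM values of 249, 231 and 236 in DKK1-SE+/+ samples and 163, 175 and 176 in DKK1-SE-/- samples, with the DKK1-SE-/- samples below all controls. It fell with a log2 fold change of -0.33 (standard error 0.0981, adjusted p = 0.0214 in edgeR), a call lost when DKK1-SE+/+ replicate 1, 2 or 3 was left out (adjusted p = 0.0852, 0.065 and 0.074 in edgeR, in a range of 4.75e-04 to 0.235 over all alternatives). *FHL3*, the third of these proteins, had TPM values of 11.3, 9.83 and 12.8 in DKK1-SE+/+ samples and 21.8, 17.9 and 15 in DKK1-SE-/- samples, again without overlap. It rose with a log2 fold change of 0.87 (standard error 0.181, adjusted p = 0.00335 in edgeR), and the log2 fold change was 0.55 with the GC-content offset. *ZYX* encodes zyxin, which gathers at adhesions and stress fibres under force, and its TPM was 124, 141 and 155 in DKK1-SE+/+ samples and 272, 216 and 215 in DKK1-SE-/- samples. The DKK1-SE-/- samples were all higher than the controls, replicate 1 the highest. *ZYX* rose with a log2 fold change of 0.92 (standard error 0.141, adjusted p = 5.85e-04 in edgeR), and with the GC-content offset the log2 fold change was 0.55.

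**Figure D4:**
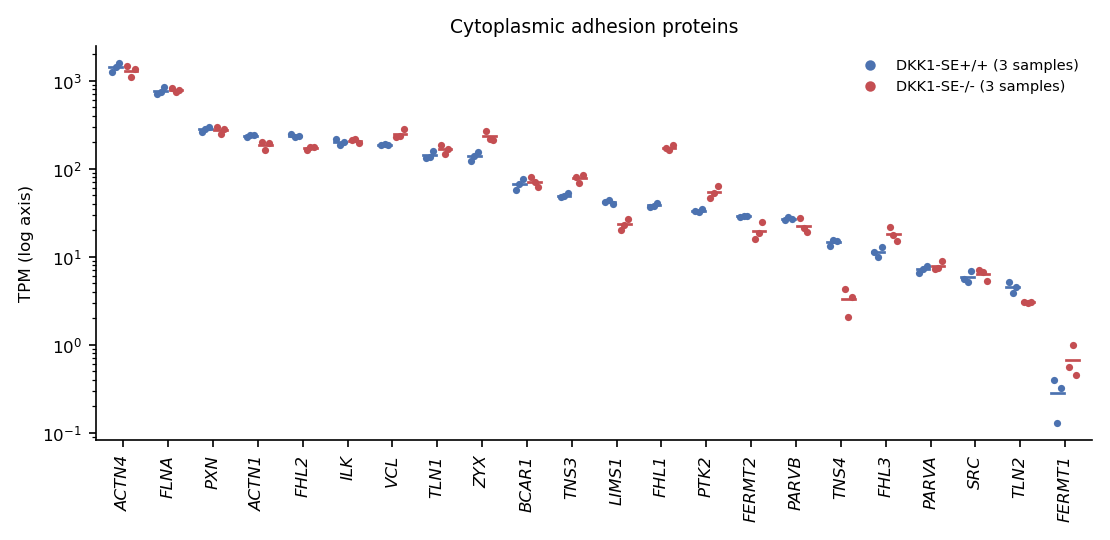
TPM of the 22 cytoplasmic adhesion proteins on a log axis, ordered by their control level. Each point is 1 sample, blue for DKK1-SE+/+ and red for DKK1-SE-/- (3 each), and lines are group means; FHL1 lies at 37.1 to 41.1 in DKK1-SE+/+ samples and 163 to 188 in DKK1-SE-/- samples, while TNS4 drops from 13.3 to 15.6 down to 2.04 to 4.32.

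The direction of the members went along with the base composition of their transcripts. Those that fell had a median GC content of 42.9% and those that rose of 54.7%, and over all tested genes these medians were 42.9% and 55.2%. Across the 37 tested members, Spearman's rho of the log2 fold change with GC content was 0.40, across all tested genes it was 0.42, and with the offset it was 0.15 across the members, values given as a description of genes that share the same libraries. *ITGAV*, *ITGB1*, *ITGA2* and *ITGA6*, with a GC content of 38.1%, 40.5%, 42.1% and 42.9%, were among the GC-poor members, and each of them kept its direction with the offset, while *FERMT2*, at 39.6%, went from -0.42 to -0.00 and lost its call. Among the cytoplasmic proteins alone the medians were 51.1% for those that fell and 49.4% for those that rose. Among the integrin chains they were 41.8% and 56%, and whether the kinds of member differ in this was not tested. What part the base composition had in the changes of single members was not tested. Position on the chromosomes also went along with direction, among the members about as often as among all genes that passed. Chromosome 2 carries 6 members, of which the 4 that were tested, *ITGA6*, *ITGAV*, *LIMS1* and *FHL2*, all fell, on a chromosome where the median log2 fold change of 975 tested genes was -0.40 (-0.30 with the GC-content offset). The tested genes within 5 Mb of *ITGAV* had a median log2 fold change of -0.58, those near *ITGA6* of -0.62, those near *LIMS1* of -0.53 and those near *FHL2* of -0.46. On the other side, the neighbours of *PTK2* had a median of 0.74 and those of *ITGB5* of 0.84, the latter above the 0.57 of *ITGB5* itself. *TNS4*, *FHL1*, *ITGA11* and *ITGA10* differed in sign from their surroundings, with neighbour medians of 0.29, -0.08, -0.08 and 0.01. In all, 19 of the 23 members that passed shared the sign of their neighbours' median (82.6%), beside 78.8% of all genes that passed and had tested neighbours. Since DKK1-SE-/- cells are 1 clone, a broad shift of a chromosome segment and a change of a single member within it cannot be told apart.

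**Figure D5:**
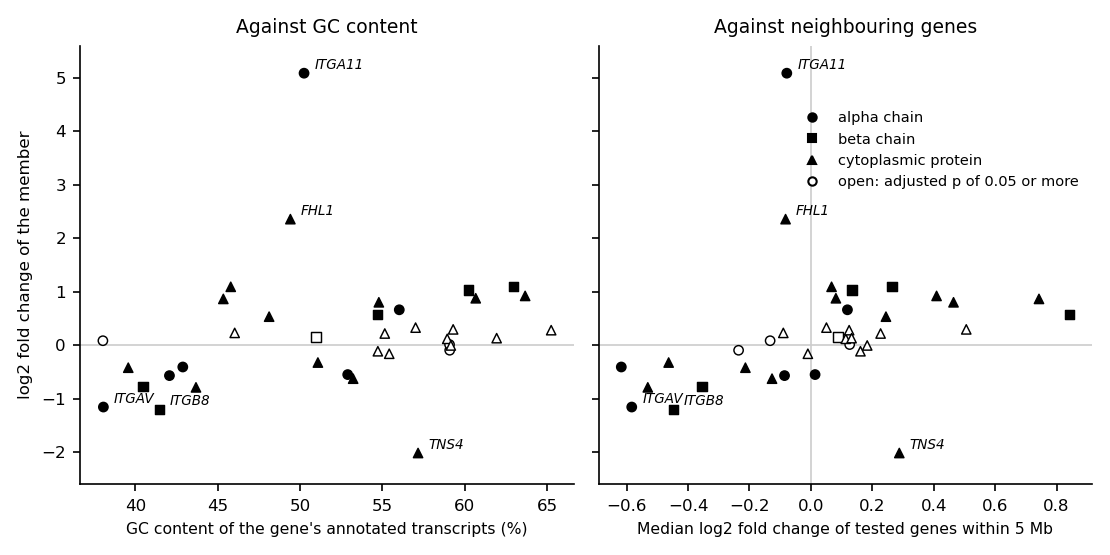
Log2 fold change of each of the 37 tested members (DKK1-SE-/- over DKK1-SE+/+) against the GC content of its annotated transcripts in percent (left) and against the median log2 fold change of tested genes within 5 Mb, the member left out (right). Circles are alpha chains, squares beta chains and triangles cytoplasmic proteins, filled where the adjusted p is under 0.05; Spearman's rho is 0.40 on the left and 0.54 on the right.

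Further genes of integrin adhesions, 73 that are not among the 42 members, were counted as a setting for them. Of the 64 that could be tested, 33 passed in edgeR (51.6%), 19 higher and 14 lower, where 39.3% of all tested genes passed, 19.8% higher and 19.5% lower. Their values had a median log2 fold change of 0.07, which turned to -0.06 with the GC-content offset. Past the log2 limit of 1.2 were 5 of the 64, a share close to the 8.66% of all tested genes. *MYLK*, the myosin light chain kinase of stress fibres, rose from TPM values of 2.08, 1.89 and 2.26 to 6.57, 5.18 and 6.43 (log2 fold change 1.85). *FLNC*, a filamin of muscle, rose from 0.62, 0.46 and 0.58 to 2.53, 1.66 and 1.69 (1.99), and *FYN*, a Src family kinase, from 2.53, 4.38 and 4.28 to 10.2, 6.48 and 9.64 (1.78). *TRIP6*, a relative of zyxin, went from counts of 4, 3 and 5 to 35, 38 and 42 (3.34). *SORBS2*, a vinculin-binding adaptor, fell from counts of 16, 18 and 23 to 1, 4 and 4 (-2.52). In these genes no DKK1-SE-/- sample overlapped a control, and the largest adjusted p was 0.00336 for *SORBS2* in edgeR. Over all alternatives, however, the log2 fold changes nearest 0 lay inside the limit. They were 1.19 for *MYLK*, 0.92 for *FLNC*, 1.05 for *FYN*, 1.16 for *TRIP6* and -1.12 for *SORBS2*.

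Of the matrix ligands of these receptors, 32 genes, 20 of the 27 tested passed in edgeR (74.1%), 13 higher and 7 lower, with a median log2 fold change of 0.57 (0.25 with the GC-content offset), where 39.3% of all tested genes passed. In the 2 fits on TPM in limma, 15 ligands passed in each. Past the log2 limit of 1.2, 9 rose and 3 fell, which is 12 of 27 where 8.66% of all tested genes were past it. On the laminin side, which *ITGA3*, *ITGA6* and *ITGB4* serve, *LAMB3* rose from TPM values of 5.83, 6.32 and 7.06 to 41.5, 39.4 and 44.9 (log2 fold change 3.01) and *LAMA4* from 2.67, 2.83 and 1.51 to 9.4, 11.5 and 15.6 (2.92). *LAMA3*, the gene of a laminin alpha chain, went from counts of 1, 2 and 0 to 170, 181 and 197, a ratio of 189 (95% exact interval 64.2 to 918, counting error only). Of the collagens, which *ITGA2* and *ITGA11* bind with *ITGB1*, *COL1A1* fell from TPM values of 91, 102 and 103 to 11.8, 8.97 and 16.1 (-3.06). *COL5A1* fell from 27.9, 29.2 and 32.2 to 12.6, 11 and 10.7 (-1.30) and *COL6A3* from 0.99, 0.99 and 1.51 to 0.26, 0.2 and 0.42 (-1.24). By contrast, *COL3A1* rose from 1.69, 1.54 and 1.5 to 3.62, 3.61 and 4.07 (1.42) and *COL6A2* from 1.69, 1.62 and 2.32 to 5.54, 3.99 and 4.14 (1.38). The ligands of the alpha v and alpha 5 receptors past this limit all rose, from low levels. *TNC*, the gene of tenascin C, rose from 0.56, 0.89 and 0.4 to 2.24, 1.89 and 2.34 (2.47), and *EDIL3* from 1.35, 0.91 and 0.74 to 1.88, 2.53 and 3.96 (1.35). *SPP1*, the gene of osteopontin, went from counts of 1, 3 and 1 to 56, 73 and 82, a ratio of 43.6 (95% exact interval 18.4 to 136, counting error only). *FN1*, the gene of fibronectin, was low, with counts of 31, 17 and 15 in DKK1-SE+/+ samples and 103, 137 and 136 in DKK1-SE-/- samples and a log2 fold change of 2.70 (standard error 0.244, adjusted p = 1.87e-05 in edgeR), while its TPM of 1.15, 1.53 and 2.06 in DKK1-SE+/+ samples and 1.42, 1.95 and 3.76 in DKK1-SE-/- samples overlapped. The 2 units part for *FN1* too, and limma on log2(TPM + 1) did not call it. Inside the limit, *MFGE8*, an abundant alpha v ligand, fell from TPM values of 523, 511 and 543 to 312, 306 and 289. Its log2 fold change was -0.65 (adjusted p = 0.00104 in edgeR). *THBS1* and *TGFB1* also passed inside the limit and rose (0.68 and 0.57), while the abundant *CCN1* and *CCN2* did not pass. Apart from *COL6A3*, whose adjusted p was 0.00347, and *EDIL3*, whose adjusted p was 0.00106, the genes past this limit had adjusted p values of at most 6.20e-04 in edgeR.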

How the data were processed

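Stranded mRNA libraries of 3 DKK1-SE-/- and 3 DKK1-SE+/+ samples of PANC-1 were prepared for the authors, who deposited 1 table of 62703 genes. The deposited expected counts are the authors' estimates of reads per gene and sample, not normalized, and 32.3% of those above 0 are not whole. The deposited TPM values were scaled by the authors for transcript length and library total. Aligner, counting program and annotation are not given in the sources used here, nor is whether counting used strand. The deposited comparison columns (fold change, log2 fold change, p, adjusted p and group mean TPM) were not used.

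Expected counts were rounded, filtered with filterByExpr (minimum count 10), normalized by TMM (factors 0.939 to 1.04) and tested with the quasi-likelihood F test of edgeR 4.0.16 in R 4.3.3. Adjusted p values are Benjamini-Hochberg over 15179 genes, and the standard error is the absolute log2 fold change over the square root of F. Totals of 16475810 to 21822314 counts leave genes with few counts imprecise, as their intervals show. Positions, overlaps and GC content are from GENCODE 44 on hg38. Alternatives were RLE factors, library size alone, DESeq2 1.42.0, no filter beyond 1 count, a replicate block, TPM as log2(TPM + 1) or log2(TPM + 0.1) in limma 3.58.1 with its trend option, a GC-content offset per library in 40 bins with or without the block, each sample left out, glmTreat against 1.2-fold, the limit of 1.2 on linear fold changes, and CPM for summed TPM. Sums, shares and motifs were computed in Python 3.11.15 with pandas 2.3.3, and the permutation test with scipy 1.17.1.

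The fits were tested on simulated data in which known genes were changed. Members that passed with an absolute log2 fold change of 0.58 or more, and the 3 most abundant of each kind, were to be given by sample, and the other members are given in the same way. Adhesion and ligand genes outside the list are named if past the log2 limit of 1.2. The log2 scale was planned here as that of the study's supplementary table, while the study's text gives its limit as a fold change. The members and lists were chosen with earlier results of these data known.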

Additional observations from a re-analysis of the deposited data

How the results depend on the processing

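Of the 23 members that passed, 14 passed under every alternative (10 higher and 4 lower in DKK1-SE-/- cells) and 9 lost the call under 1 or more (2 higher and 7 lower). The same count over all tested genes is not given here, so these numbers have no background to be set against. None of the 23 turned direction, although *FERMT2* had a log2 fold change of only -0.0007 with the GC-content offset. The 14 include *ITGA5*, *ITGA11*, *ITGAV*, *ITGB1*, *ITGB4*, *ITGB5*, *PTK2*, *VCL*, *TNS4* and *FHL1*. With RLE factors, library size alone, DESeq2, no filter beyond 1 count or TPM in limma, 19 to 23 members passed. Over all genes, 4125 to 6545 passed in these fits. With the GC-content offset 27 members passed, beside 6170 over all genes. With 1 sample left out, 17 to 26 members passed, and the number lower in DKK1-SE-/- cells ranged from 6 to 11. Over all genes 4095 to 7558 passed, and 2055 to 3855 of them were lower. The cause of this spread was not tested. The test against a 1.2-fold change left 3956 genes of all and 17 members, 6 of them lower, since it asks for more than any change. On the linear scale that the study's text gives, the limit of 1.2 left 24 members in place of the 4 on the log2 scale. Of all genes that passed, 50.5% were higher in DKK1-SE-/- cells (3013 against 2959), but 35.8% in limma on log2(TPM + 1) (1491 against 2670) and 36.2% on log2(TPM + 0.1) (1493 against 2632). The summed TPM ratio of beta chains was 0.778, and 0.793 in CPM. Depth limits members with few counts, such as *ITGA1*, *ITGA11* and *FERMT1*, and the 3 DKK1-SE-/- samples are 1 clone.

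Direction turned only in members that did not pass, and the cause was not tested. The log2 fold change of *ITGA7* was -0.0018 with RLE factors, -0.0607 with library size alone, -0.0096 in DESeq2, -0.0077 without the filter, and -0.21 with the GC-content offset. In limma on log2(TPM + 1) and log2(TPM + 0.1), *ITGB3* had -0.0109 and -0.0161, and *PXN* -0.0348 and -0.0349. With the GC-content offset the value was -0.12 for *PXN*, -0.0110 for *ILK*, -0.11 for *BCAR1* and -0.17 for *FLNA*. With 1 sample left out, values ranged from -0.56 to 0.48 for *ITGA1*, -0.11 to 0.11 for *ITGA7*, -0.0262 to 0.17 for *PXN*, -0.0248 to 0.20 for *FLNA* and -0.15 to 0.0552 for *ACTN4*.

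In a fit with a replicate block, 4981 genes of all and 20 members passed (11 higher, 9 lower), the calls of *ITGA10*, *FERMT1* and *FHL2* not being made (adjusted p = 0.0858, 0.0721 and 0.0977 in edgeR), and with the block and the GC-content offset 5585 and 22. In that last fit *ITGA6*, *ITGB2*, *FERMT1* and *FERMT2* lost their calls (adjusted p = 0.0826, 0.096, 0.0598 and 0.995 in edgeR). *PARVA* and *ACTN4*, which passed with the offset alone, did not pass there (0.0691 and 0.104). Under the block the value of *ITGA1* was -0.0959, and with the offset as well it was -0.21 for *ITGA7*, -0.12 for *PXN*, -0.0101 for *ILK*, -0.11 for *BCAR1* and -0.17 for *FLNA*. Deviations of same-numbered samples from their group means correlated by -0.123, -0.074 and -0.109, and no sample correlated best with its own number, so the samples share only a number here; whether they were prepared together is not stated.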
